A study of Mus musculus with 21 samples.

Results

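The 10 Wnt ligand genes described here were measured by RNA sequencing in mouse colon and in colon tumours: Wnt2, Wnt2b, Wnt3, Wnt4, Wnt5a, Wnt6, Wnt9a, Wnt9b, Wnt10a and Wnt11. They were chosen by gene symbol, as ligands of epithelium and stroma, from the 24062 genes of the count table, and all 10 symbols were in it. The other 9 mouse Wnt ligand genes in the table are given by counts. The choice was made with earlier results of these libraries known, and which values guided it is not recorded. Fold changes and adjusted p-values of the 10 genes are therefore given as a description of the fit and not as independent support.

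Wild-type C57BL/6 mice were compared with App NL-G-F knock-in mice of this strain, in which the gene of the amyloid precursor protein is humanised and mutated as a model of Alzheimer's disease. Tumours came from mice given AOM/DSS, the carcinogen azoxymethane with dextran sulfate sodium, an agent that injures the colon lining. The 21 libraries formed 7 groups of 3: normal colon and tumour of wild-type males, of knock-in males and of wild-type females, and normal colon of knock-in females. No knock-in female tumour was analysed here. The normal libraries are labelled as untreated, whereas the series text speaks of normal tissue beside tumours or of colon without tumours, so they are called normal colon. If the mice were untreated, tumour and AOM/DSS exposure cannot be told apart in any comparison of tumours with normal colon. Ages are not given, and the labels do not say whether libraries of a group came from separate animals, so p-values measure only the spread between these libraries, which may be technical. The series asks how the knock-in changes the outcome of AOM/DSS, and whether this depends on sex.

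Wnt ligands are secreted, lipid-modified glycoproteins. Porcn attaches the lipid, Wls carries the ligand to the cell surface, and Frizzled receptors bind it. With the co-receptors Lrp5 and Lrp6 a ligand stabilises beta-catenin, which switches on targets such as Axin2 with Tcf and Lef factors. This arm keeps the stem cells at the base of the colonic crypt dividing, and most colorectal tumours activate it inside the cell, below the ligands. Other ligands, with Wnt5a and Wnt11 as the usual examples, act mainly through Ror and Ryk receptors and planar polarity proteins on cell shape and movement. In the intestine Wnt2b and Wnt5a are known as products of the stroma.

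Of the 10 genes, Wnt6 (chr1:74771892-74785322, plus strand) and Wnt10a (chr1:74791516-74804179, plus strand) are neighbours in the same orientation, 6.2 kb apart, in the mm10 build with GENCODE vM21 gene spans. Wnt3 (chr11:103774150-103817957, plus strand) and Wnt9b (chr11:103727364-103749821, minus strand) also lie side by side, in opposite orientation and 24.3 kb apart. The RefSeq model of Wnt9b reaches position 103775272, past the RefSeq start of Wnt3 at 103774175, and the strand setting of the counting is not known, so reads from this stretch cannot be assigned to one gene or the other. Wnt5a lies on chromosome 14 (28504750 to 28527448, plus strand), Wnt11 on chromosome 7 (98835112 to 98855195, plus strand) and Wnt2b on chromosome 3 (104945272 to 104961921, minus strand). Wnt4 lies on chromosome 4 (137277489 to 137299726, plus strand), Wnt2 on chromosome 6 (17988940 to 18030585, minus strand) and Wnt9a on chromosome 11 (59306928 to 59333552, plus strand). Antisense or overlapping predicted genes are annotated at Wnt2b, Wnt5a, Wnt6 and Wnt11, and their reads could have been counted for these ligands.

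RefSeq promoter windows on GRCm38.p6 matched 8 of the 10 genes; Wnt5a and Wnt10a were the unmatched ones. Below are the 250 bases before an annotated start of Wnt6, Wnt11 and Wnt2b. Wnt6 rose in wild-type tumours, Wnt11 was higher in knock-in than in wild-type female colon, and Wnt2b fell in wild-type tumours. The sequences run 5′ to 3′ in the direction of the gene, and capitals mark a match to CTTTGAT, the core bound by Tcf and Lef factors, read on either strand.
Wnt6, chr1:74771642-74771891, plus strand: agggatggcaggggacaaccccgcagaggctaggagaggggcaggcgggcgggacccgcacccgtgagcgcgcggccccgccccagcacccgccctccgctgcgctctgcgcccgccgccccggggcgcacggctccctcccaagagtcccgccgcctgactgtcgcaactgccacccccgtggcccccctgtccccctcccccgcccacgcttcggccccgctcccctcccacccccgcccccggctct
Wnt11, first start, chr7:98834862-98835111, plus strand: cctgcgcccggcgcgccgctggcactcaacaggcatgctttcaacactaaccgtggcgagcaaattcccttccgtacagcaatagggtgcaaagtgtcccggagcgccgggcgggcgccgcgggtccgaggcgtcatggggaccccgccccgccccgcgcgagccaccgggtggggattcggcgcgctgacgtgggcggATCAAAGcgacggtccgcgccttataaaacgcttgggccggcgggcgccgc
Wnt2b, chr3:104961710-104961959, minus strand: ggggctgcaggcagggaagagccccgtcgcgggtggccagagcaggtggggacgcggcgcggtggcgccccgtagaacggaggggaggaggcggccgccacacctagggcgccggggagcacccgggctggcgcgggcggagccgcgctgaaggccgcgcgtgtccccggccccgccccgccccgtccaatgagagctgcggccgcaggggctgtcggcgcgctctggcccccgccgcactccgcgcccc

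The match in Wnt11 begins 51 bases before the start and overlaps no other searched motif. The 9 windows of the 8 genes, Wnt11 having a second window, were searched for CTTTGAT and for TGANTCA, the site of AP-1 factors. The RefSeq models of Wnt6, Wnt2 and Wnt9b begin further upstream than their windows, at positions 74754342, 18032772 and 103775272. The bases before those starts were not searched. Besides the match in Wnt11, neither set of letters was found in them. Of all 32851 RefSeq windows of this length, 3.205% held CTTTGAT and 6.749% held TGANTCA. The member windows were rich in G and C, from 56.8% at the second Wnt11 start to 85.2% at Wnt4, against a median of 52.4% over all windows. Wnt6 held 28 CpG pairs, Wnt11 37 at its first start and Wnt2b 36, against a median of 6.

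Sequencing depth ranged between 3414123 and 26174008 counts per library. Levels are given as CPM, counts scaled to library size, and the floor of 3 counts corresponded to 0.127 to 0.873 CPM depending on the library. The 8 epithelial markers were present in every library, with summed levels of 5600 to 10500 CPM. The smooth muscle sum was lower in tumours of each background: 2810 to 9340 CPM in normal colon of wild-type males and 222 to 768 in their tumours, 4400 to 7930 and 857 to 1000 in knock-in males, and 1910 to 4430 and 198 to 247 in wild-type females. In each background 8 of 8 smooth muscle markers were called lower, and their part in the fall of Wnt2b described below was not tested. In bulk tissue, fewer cells of a type and less RNA per cell cannot be told apart. Some libraries stood apart within their group. Markers of stratified squamous epithelium, a lining that the colon itself lacks, summed to 2160 CPM in wild-type male normal replicate 1, 1030 in knock-in male normal replicate 1, 3620 in knock-in male tumour replicate 2, and 719 and 485 in knock-in female normal replicates 1 and b. In wild-type female normal colon the same 6 markers summed to 3.25 to 5.02 CPM. Wild-type male normal replicate 3 and knock-in male normal replicate 2 had the lowest Axin2 levels of their groups, 82 and 86.5 CPM, where the other libraries of these groups had 220 to 315.

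Per kilobase of the longest transcript, and as the mean of the 7 group means, Wnt6 was the most abundant ligand RNA at 15.5 CPM per kb, followed by Wnt10a at 10.2. Wnt2b and Wnt5a came next at 5.47 and 5.42, and Wnt4 stood at 1.72. The order was another in female normal colon, where Wnt2b led Wnt6 and Wnt10a: 5.7, 0.716 and 0.0894 CPM per kb in the wild-type and 8.02, 1.44 and 0.856 in the knock-in. Wnt3, Wnt11, Wnt9a and Wnt2 lay between 0.46 and 0.234 CPM per kb. Wnt9b was at 0.0351, with at most 6 counts in a library and no count in 9 of the 21, and was the member that did not pass the low-count filter. It had 0 counts in the 3 wild-type female normal libraries, and no test is given for it. The remaining 9 members entered the fit with 15936 tested genes.

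Wnt5a, Wnt6 and Wnt10a together made up 83.4% ± 1.69 (SD, n = 3) of all Wnt ligand counts in wild-type male tumours and 82.6% ± 0.568 in wild-type female tumours. Their share was 71% ± 10.8 in knock-in male tumours. It was 56.2% ± 14 in wild-type male normal colon and 57.9% ± 8.47 in knock-in male normal colon. The female normal groups had the lowest shares, 33.4% ± 1.85 in wild-type and 30.7% ± 3.21 in knock-in mice. The ranges of both female normal groups lay below those of every tumour group. The choice of genes fixes part of this, since these are the ones called higher in wild-type male tumours. Wnt2b held 41.8 to 48.5% of these counts in wild-type female normal colon and 5.42 to 8.15% in wild-type female tumours. The shares use counts that are not scaled for transcript length.

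**Figure D1:**
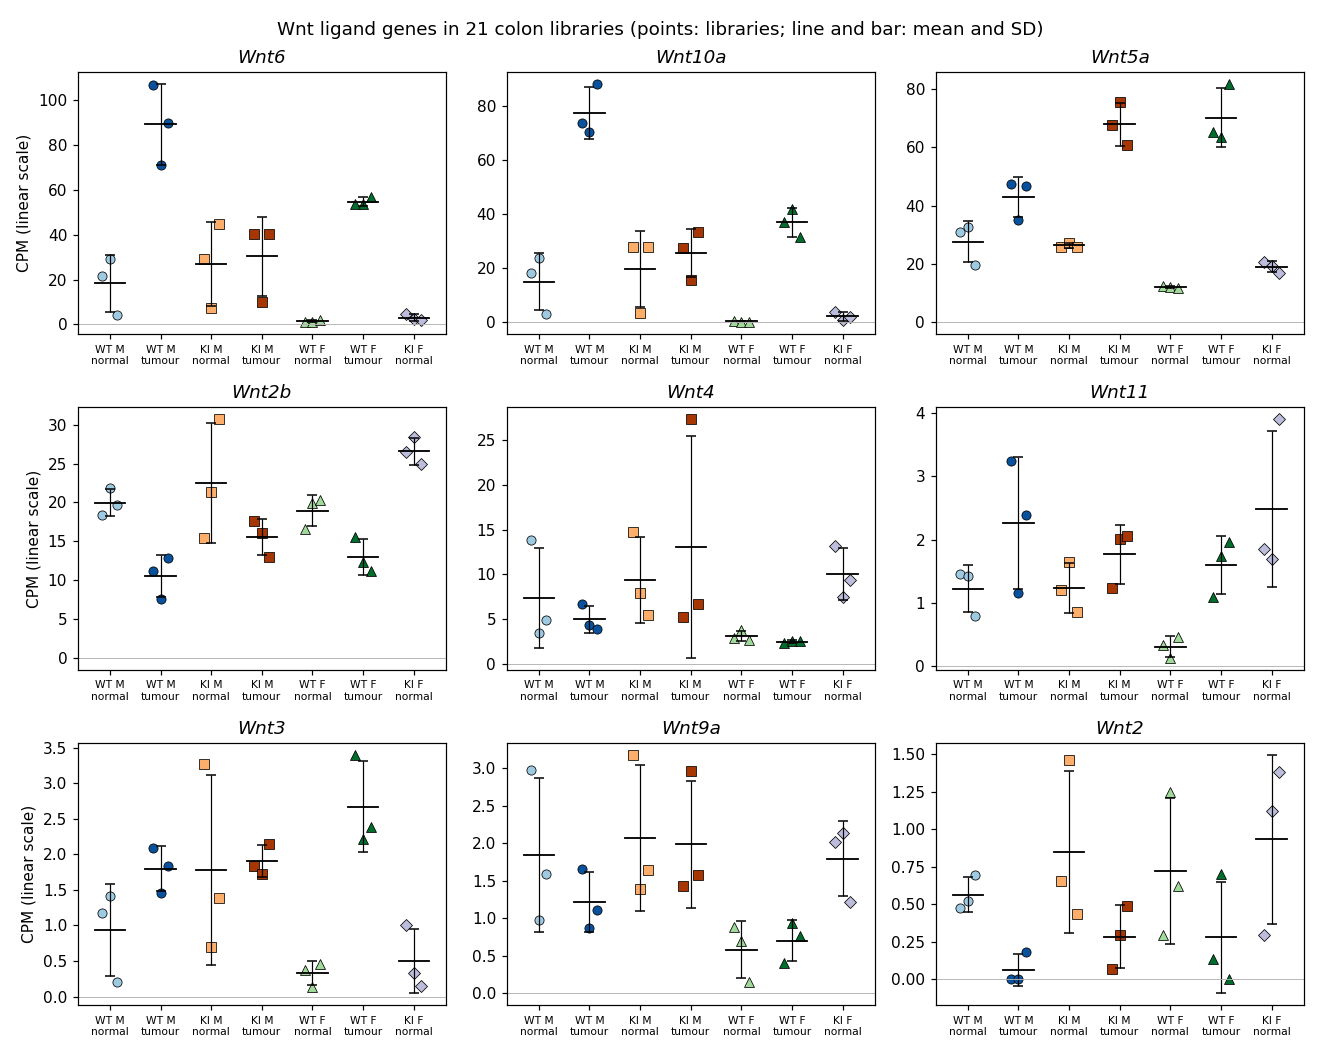
CPM on a linear scale for the 9 tested Wnt ligand genes in the 7 groups (WT, wild-type; KI, App NL-G-F knock-in; M, male; F, female); points are libraries, the line and bar the mean and SD of 3. Wnt6 and Wnt10a are highest in wild-type tumours, Wnt5a in knock-in male and wild-type female tumours, and one knock-in male tumour library lies far above the others for Wnt4.

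In wild-type males, tumours held more Wnt6, Wnt10a and Wnt5a RNA and less Wnt2b RNA than normal colon, by 4.86-fold, 5.1-fold, 1.57-fold and 1.85-fold. These were 4 of the 9 tested members, 3 higher and 1 lower, where 35.7% of all tested genes were called (16.5% higher, 19.3% lower). A share of this size among 9 genes is near that background and is no result about the ligands as a group. The median log2 fold change of the members was 0.65, beside 0.01 over all tested genes.

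Wnt6, a ligand of epithelia that signals through beta-catenin, was at 21.5, 29.1 and 4.28 CPM in the 3 normal libraries and at 107, 71 and 90 CPM in the tumours. Each tumour library exceeded each normal one. The log2 fold change was 2.28 ± 0.65 (SE), with an edgeR adjusted p of 0.0132. Wnt10a, a beta-catenin ligand best known from hair, tooth and skin, stood at 18.2, 23.7 and 3.08 CPM in normal colon and 73.7, 70.4 and 88.4 CPM in tumours. Its groups were likewise apart, with the normal replicate 3 low for both genes. The log2 fold change was 2.35 ± 0.69, with an edgeR adjusted p of 0.0153. Without wild-type male normal replicate 3 it was 1.89, and the adjusted p 0.0524, past the threshold of 0.05.

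Wnt5a, the main ligand of the polarity arm in the gut stroma, rose from 30.8, 32.6 and 19.5 CPM to 47.4, 35.2 and 46.6 CPM. The tumour values lay just above the normal ones, with a log2 fold change of 0.65 ± 0.16 and an edgeR adjusted p of 0.0054. When the fit held only these groups, the adjusted p was 0.0533. Wnt2b, a stromal ligand that feeds the crypt base, fell from 18.4, 21.8 and 19.7 CPM to 11.1, 7.57 and 12.8 CPM. The groups did not overlap, and the log2 fold change was -0.89 ± 0.22 with an edgeR adjusted p of 0.00432.

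The other 5 tested members did not pass the threshold in wild-type males. Wnt11 had a log2 difference of 0.94 ± 0.44 and Wnt3 of 0.92 ± 0.61, with edgeR adjusted p of 0.102 and 0.253. Wnt4 and Wnt9a were at -0.57 ± 0.58 and -0.56 ± 0.51. Wnt2 had 10, 7 and 7 counts in normal colon and 0, 0 and 2 in tumours, at or under the floor, so no fold is given, and its edgeR adjusted p was 0.0779.

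In knock-in males, Wnt5a was the member called, 2.57-fold higher in tumours, where 20.4% of all tested genes were called (10.4% higher). It stood at 25.9, 27.3 and 25.9 CPM in normal colon and at 67.5, 75.5 and 60.7 CPM in tumours, and the groups lay far apart. The log2 fold change was 1.36 ± 0.16, with an edgeR adjusted p of 0.000899, and it stayed under 0.05 without each of the 6 libraries in turn. The median log2 fold change of the 9 members was 0.16, beside 0.01 over all tested genes.

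Wnt6 in knock-in males was at 29.3, 7.34 and 44.7 CPM in normal colon and 40.5, 10.2 and 40.3 CPM in tumours, with overlapping groups. The log2 difference was 0.16 ± 0.63 (edgeR adjusted p = 0.878). Wnt10a was at 27.9, 3.29 and 27.8 CPM and 27.5, 15.7 and 33.3 CPM, and its log2 difference was 0.38 ± 0.67 (edgeR adjusted p = 0.716). Within each group the same library was lowest for both genes, replicate 2. Wnt2b was at 15.4, 21.3 and 30.7 CPM in normal colon and 17.6, 16 and 13 CPM in tumours, a log2 difference of -0.53 ± 0.21 (edgeR adjusted p = 0.0818). Without knock-in male normal replicate 1 it was -0.78, with an adjusted p of 0.0184. The remaining members had log2 differences of 0.49 or less in either direction, except Wnt2 at -1.65 ± 0.85 (edgeR adjusted p = 0.173).

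The male tumour effects of the genotypes were set against each other as an interaction. None of the 9 members was called by edgeR, where 1.51% of all tested genes were; 2 members had an unadjusted p under 0.05, and the DESeq2 Wald test called 1, Wnt5a. The interaction was 0.72 ± 0.23 for Wnt5a (edgeR adjusted p = 0.0813, DESeq2 0.0423), -2.12 ± 0.90 for Wnt6 (edgeR 0.162) and -1.97 ± 0.95 for Wnt10a (edgeR 0.207). Without knock-in male normal replicate 2, the library with low Axin2, the adjusted p of Wnt6 and Wnt10a fell to 0.0465 and 0.0441, with interactions of -2.59 and -2.51. A difference between the genotypes in the tumour response of these ligands thus rested on the tool or on that library.

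In wild-type females, tumours had 6 of the 9 tested members called, 5 higher and 1 lower: Wnt10a, Wnt6, Wnt3, Wnt5a and Wnt11 rose, and Wnt2b fell. Of all tested genes, 49.1% were called (25.0% higher, 24.0% lower). The median log2 fold change of the members was 2.31, beside 0.01 over all tested genes.

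Wnt6 was at 1.18, 1.25 and 2.01 CPM in female normal colon and 53.9, 53.5 and 56.9 CPM in tumours. The libraries of each group lay close together and the groups far apart, and the log2 fold change was 5.28 ± 0.84, a 38.9-fold rise (edgeR adjusted p = 9.86e-05). Wnt10a had 12, 0 and 1 counts in normal colon, and in tumours it was at 37.2, 42.1 and 31.6 CPM. The fitted log2 fold change was 6.77 ± 1.05 (edgeR adjusted p = 7.63e-05), and its size is uncertain because 2 of the normal libraries lay under the floor.

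Wnt5a stood at 12.3, 12 and 11.6 CPM in female normal colon and 65.3, 63.5 and 81.8 CPM in tumours. It was 5.86-fold higher, a log2 fold change of 2.55 ± 0.18 with an edgeR adjusted p of 3.63e-08, the lowest among the members in any comparison. Wnt11, which shapes cell movement in development, was at 0.338, 0.139 and 0.465 CPM in normal colon and 1.09, 1.75 and 1.96 CPM in tumours. The groups did not overlap, although the normal libraries held at most 8 counts, and the log2 fold change was 2.31 ± 0.54 (edgeR adjusted p = 0.00158).

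Wnt3, the ligand that Paneth cells of the small intestine give to neighbouring stem cells, was at 0.38, 0.139 and 0.465 CPM in female normal colon and 3.4, 2.22 and 2.39 CPM in tumours. These were 1 to 9 counts against 19 to 25, without overlap, and the log2 fold change was 2.94 ± 0.70 (edgeR adjusted p = 0.00199). Wnt2b was at 16.6, 19.9 and 20.3 CPM in normal colon and 15.5, 12.3 and 11.1 CPM in tumours. Its log2 fold change of -0.54 ± 0.22 passed narrowly, with an edgeR adjusted p of 0.0465. Under scaling by library totals the adjusted p was 0.134, and without single libraries it was up to 0.16, without wild-type female tumour replicate 3. With a covariate for the libraries numbered 152 to 154, which include 2 of the 3 female tumours, the log2 fold change was -0.30 (adjusted p = 0.375), and with the squamous covariate -0.38 (adjusted p = 0.208), so the fall of Wnt2b in females depended on the processing. Wnt4 had a log2 difference of -0.31 ± 0.64, Wnt9a of 0.14 ± 0.60 and Wnt2 of -1.20 ± 0.98, with edgeR adjusted p from 0.329 to 0.868.

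**Figure D2:**
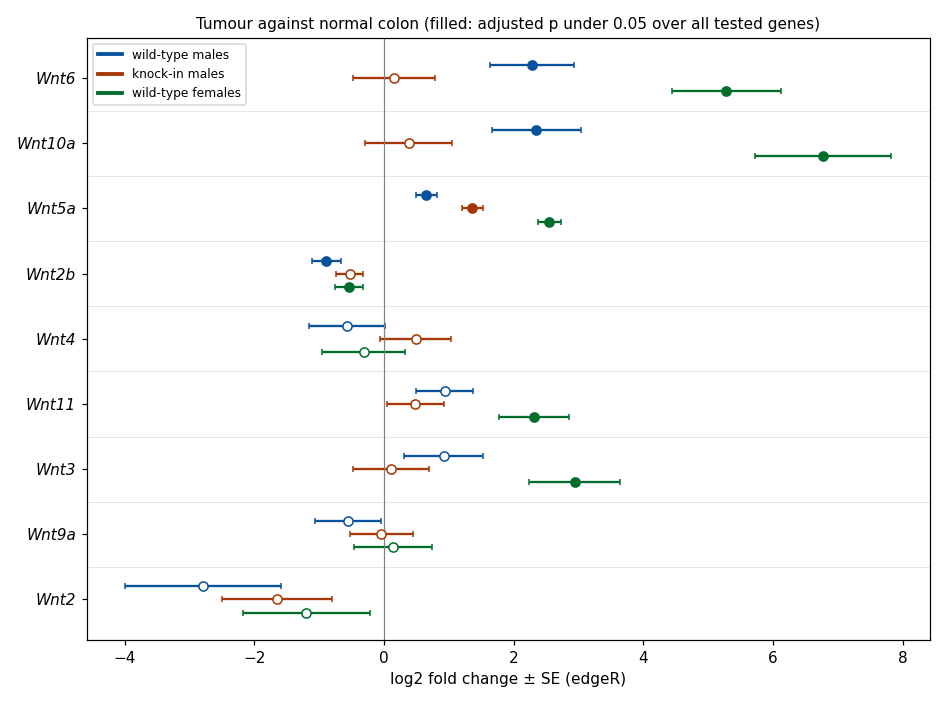
Log2 fold change of tumour over normal colon with its SE from edgeR for the 9 tested members in wild-type males, knock-in males and wild-type females; filled points have an adjusted p under 0.05 over all tested genes. Wnt5a is filled in all 3 backgrounds, at 0.65, 1.36 and 2.55, whereas Wnt6 and Wnt10a are filled in the wild-type ones.

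The tumour effect was compared between the sexes of the wild-type by an interaction. Wnt5a was the member called, at 1.90 ± 0.24 (edgeR adjusted p = 0.000682), where 1.12% of all tested genes were called and 0.929% in the higher direction. Its rise was larger in females, and it stayed called under each of the 10 other settings and without each of the 12 libraries in turn. Scaling by library totals moved the median interaction of all genes by 0.11, which is small beside this value. Wnt10a had an interaction of 4.42 ± 1.29 and Wnt6 of 3.01 ± 1.04, with edgeR adjusted p of 0.112 and 0.188. The DESeq2 Wald test called Wnt10a as well, with an adjusted p of 0.00795, and so did edgeR without wild-type male normal replicate 3, at 0.0292.

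In the comparison of tumours by edgeR, 0 of the 9 members were called between wild-type female and male tumours, where 0.860% of all tested genes were; 1 member, Wnt5a, had an unadjusted p under 0.05 and was also the single call of the DESeq2 Wald test. Wnt5a was 1.61-fold higher in the female tumours, a log2 difference of 0.69 ± 0.16, with adjusted p of 0.0512 by edgeR and 0.00743 by DESeq2. Wnt6 and Wnt10a had log2 differences of -0.71 ± 0.62 and -1.07 ± 0.67. The female tumour libraries were lower for both genes than each male one, and the edgeR adjusted p were 0.541 and 0.37. When the fit held only these groups they were 0.022 and 0.00873.

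Wild-type female normal colon had less Wnt6, Wnt10a, Wnt5a and Wnt11 RNA than male normal colon, 4 of the 9 tested members, where 15.9% of all tested genes were called and 10.2% lower. Wnt5a was at about 12 CPM in each female library, under the lowest male value of 19.5 CPM, a log2 difference of -1.21 ± 0.17 (edgeR adjusted p = 0.000208). Wnt6 was 13.2-fold lower, at -3.72 ± 0.83 (edgeR adjusted p = 0.00784). Wnt10a was at -5.49 ± 1.05 (edgeR adjusted p = 0.00307), again against libraries near the floor. Wnt11 was at 1.46, 1.42 and 0.796 CPM in males and 0.465 CPM or less in females, a log2 difference of -1.94 ± 0.53 (edgeR adjusted p = 0.0186).

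Of these calls, those of Wnt5a and Wnt10a held without each library in turn. Wnt6 was lost without wild-type female normal replicate 1, with an adjusted p of 0.0511. Wnt11 was lost without female replicate 1 or 2 or male replicate 1 or 2, with adjusted p of 0.0506 to 0.0842. Since the same normal libraries serve as the base of the tumour comparisons, the lower female normal values and the larger female tumour effects share their data. Fibroblast markers moved with these values: their summed level was 1220 to 1440 CPM in wild-type female normal colon and 2490 to 2820 in male, and 5 of the 8 were called lower. Endothelial markers were at 49 to 78.4 CPM against 103 to 144, with 4 of 5 called lower. The part of these markers in the lower ligand values was not tested.

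In the knock-in the same comparison gave 0 calls by edgeR among the 9 members, where 0.584% of all tested genes were called; 5 members had an unadjusted p under 0.05, and the DESeq2 Wald test called 2, Wnt6 and Wnt10a. Wnt6 was at 4.7, 2.25 and 1.99 CPM in female knock-in normal colon (replicates 1, a and b), under each of the 3 male values. The log2 difference was -3.13 ± 0.73, with adjusted p of 0.0707 by edgeR and 0.000996 by DESeq2. Wnt10a was at 3.87, 0.787 and 1.68 CPM in females, the first of which exceeded the lowest male value of 3.29. It had a log2 difference of -3.11 ± 0.78, with adjusted p of 0.081 by edgeR and 0.00623 by DESeq2. Without knock-in male normal replicate 2, edgeR called both, at 0.014 and 0.0109.

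Between the genotypes, knock-in female normal colon had more Wnt5a and Wnt11 RNA than wild-type female normal colon. These were 2 of the 9 tested members, where 16.0% of all tested genes were called and 8.97% higher, so the count is no result about the ligands. Wnt11 was at 1.85, 1.69 and 3.9 CPM in the knock-in (31, 15 and 51 counts) and 0.338, 0.139 and 0.465 CPM in the wild-type (8, 1 and 3 counts). The groups lay apart, with a 7.62-fold difference, a log2 fold change of 2.93 ± 0.52 and an edgeR adjusted p of 0.0013. Wnt5a was at 20.7, 19.3 and 16.9 CPM in the knock-in, above each wild-type library, a log2 fold change of 0.66 ± 0.17 (edgeR adjusted p = 0.0148). This call of Wnt5a was lost without wild-type replicate 1 or 2 or knock-in replicate 1 or a, with adjusted p of 0.0504 to 0.0557.

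Of the members not called there, Wnt4 had a log2 difference of 1.69 ± 0.60 and Wnt9a of 1.46 ± 0.54, with edgeR adjusted p of 0.0618 and 0.0743. Wnt4 was called by the DESeq2 Wald test (adjusted p = 0.0194) and by edgeR with the compared groups alone (adjusted p = 0.00459). Wnt10a was at 2.74 ± 1.19 (edgeR adjusted p = 0.13, DESeq2 0.0122), between wild-type libraries near the floor and knock-in ones of 0.787 to 3.87 CPM. The knock-in libraries of this comparison also held more smooth muscle RNA, 6620 to 9360 CPM against 1910 to 4430 with 4 of 8 markers called higher, and more fibroblast RNA, 2320 to 2890 CPM with 4 of 8 called higher. Endothelial markers were at 108 to 125 CPM against 49 to 78.4 (3 of 5 called higher), and mesothelial markers at 1.24 to 2.5 against 2.17 to 27.4 (4 of 4 called lower). Their squamous marker sums were 719, 2.92 and 485 CPM for replicates 1, a and b, beside Wnt11 at 1.85, 1.69 and 3.9 CPM. With that sum as a covariate, which was added once the values had been seen, Wnt11 kept its call and Wnt5a had an adjusted p of 0.0666. The part of the muscle, fibroblast, endothelial and mesothelial markers was not tested.

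In male normal colon, edgeR called 0 of the 9 members between knock-in and wild-type, where 0.0126% of all tested genes were; none had an unadjusted p under 0.05, and the DESeq2 Wald test called 0. The log2 difference was -0.07 ± 0.16 for Wnt5a and 0.01 ± 0.44 for Wnt11. The interaction of genotype and sex in normal colon called 1 member, Wnt11, at 2.92 ± 0.68 (edgeR adjusted p = 0.0285), where 2.54% of all tested genes were called and 1.76% higher. It was lost without any one of 6 of the 12 libraries, with adjusted p of 0.0518 to 0.0873. These were wild-type female replicates 1 and 2, wild-type male replicate 1, knock-in male replicate 3 and knock-in female replicates a and b.

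Knock-in male tumours had more Wnt5a RNA than wild-type male tumours, by 1.57-fold, a log2 fold change of 0.65 ± 0.16 with an edgeR adjusted p of 0.018. Each of the 3 knock-in values, 60.7 to 75.5 CPM, lay above the highest wild-type value of 47.4. It was the member called, where 14.5% of all tested genes were called and 9.30% higher, and the call was lost without wild-type tumour replicate 2 (adjusted p = 0.0666) or knock-in tumour replicate 2 (adjusted p = 0.0929). It was also lost with offsets for GC content and length, at 0.53 (adjusted p = 0.0528), under which Wnt2b was called instead, at 0.78 (adjusted p = 0.0277). Wnt6 and Wnt10a had log2 differences of -1.57 ± 0.63 and -1.61 ± 0.67, with edgeR adjusted p of 0.102 and 0.112, and Wnt10a was called with the compared groups alone, at -1.64 (adjusted p = 0.021). For both genes each knock-in tumour library was below each wild-type one. Wnt2b and Wnt4 were at 0.54 ± 0.22 and 1.38 ± 0.58, with edgeR adjusted p of 0.101 and 0.111.

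**Figure D3:**
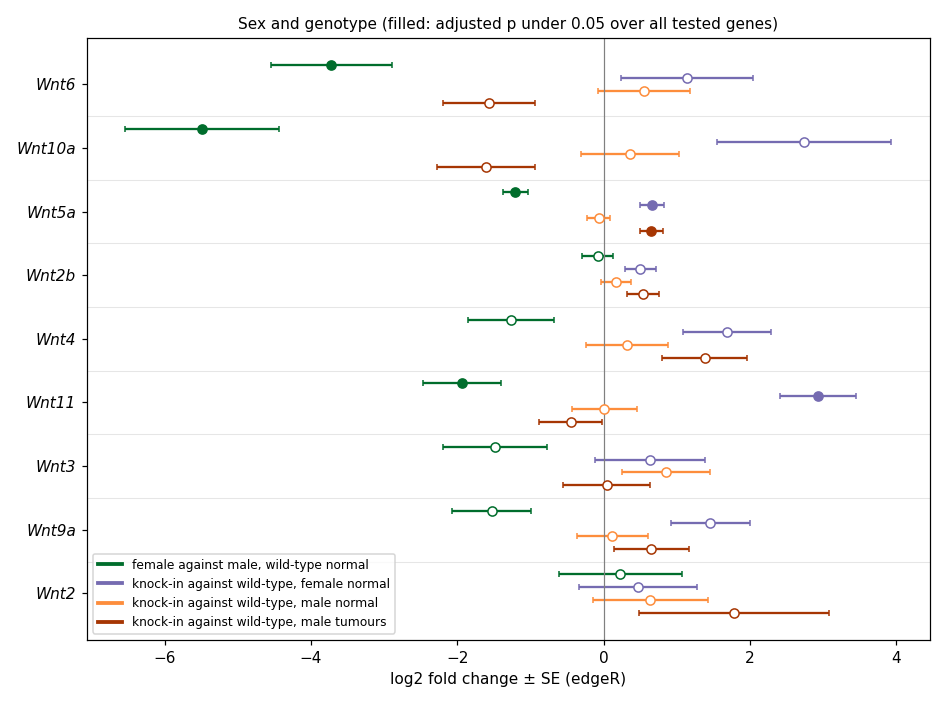
Log2 fold change with its SE from edgeR for the 9 tested members between the sexes in wild-type normal colon and between the genotypes in female normal colon, male normal colon and male tumours; filled points have an adjusted p under 0.05 over all tested genes. Wnt6, Wnt10a, Wnt5a and Wnt11 are lower in wild-type female than male normal colon, and Wnt11 is 2.93 log2 units higher in knock-in female normal colon.

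The neighbouring genes Wnt6 and Wnt10a followed each other from library to library. Where both had at least 3 counts, the ratio of Wnt6 to Wnt10a counts ran from 0.647 in knock-in male tumour replicate 2 to 2.86 in knock-in female normal replicate a, while Wnt6 itself ranged from 1.18 to 107 CPM. Axin2, a feedback inhibitor and general readout of beta-catenin, stood at 30 to 35 CPM in wild-type female normal colon, 45.9 to 58.2 in knock-in female normal colon and 627 to 695 in tumours of wild-type males. In knock-in male tumours it was at 447, 187 and 380 CPM, lowest in replicate 2, as were Wnt6 and Wnt10a. The libraries that stood low within male normal colon were also low for all of these genes.

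Over the 21 libraries the genes whose log2 CPM was most like that of Wnt10a were Nkd1, an inhibitor induced by beta-catenin (Pearson r = 0.99), and Vangl2, a planar polarity protein (0.98). For Wnt6 they were Adcy1 and Jakmip3 (both 0.99), and for Wnt3 they were Ccdc141 and Sp5 (both 0.93). For Wnt5a they were Samd5 (0.96) and Phldb2 (0.95), and for Wnt2b Rasgrp4 (0.93) and Gstt2 (0.89). Wnt4 was most like Pvrl1 and Kctd15 (both 0.89), and Wnt9a was most like Pitx1 (0.89) and then Wnt4 itself (0.84). The most like genes of the low members Wnt11 (Phf20 and Ddx19a, both 0.84) and Wnt2 (Abcg5, 0.83, and Cdx1, 0.82) rest on few counts. These values are descriptions over libraries that share groups and depth, and carry no test.

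**Figure D4:**
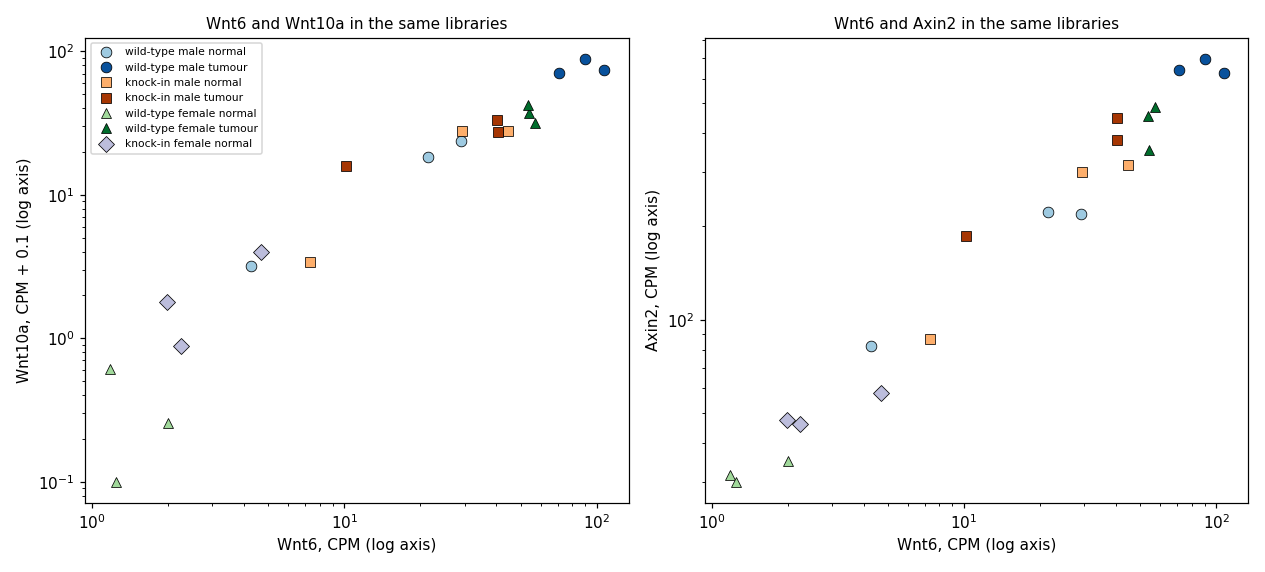
Wnt6 against Wnt10a (left, CPM + 0.1 for Wnt10a) and against Axin2 (right) in the 21 libraries, in CPM on log axes, with symbols by group. Wild-type female normal colon lies at the lower left, at 1.18 to 2.01 CPM of Wnt6, and wild-type male tumours at the upper right, at 71 to 107.

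Wnt4, known for kidney tubule formation and female reproductive development, had a wide spread within groups. With all libraries and no covariate in the fit, it did not pass the edgeR threshold in any comparison. The calls of Wnt4 in knock-in against wild-type female normal colon by DESeq2 and with the compared groups alone are given above. In male normal colon it was at 13.8, 3.52 and 4.87 CPM in the wild-type and at 14.7, 7.98 and 5.45 CPM in the knock-in. Knock-in male tumours had 5.24, 27.3 and 6.66 CPM. In knock-in female normal colon it was at 13.2, 7.53 and 9.34 CPM for replicates 1, a and b. The 5 libraries with the highest Wnt4 were those with the highest squamous marker sums, 485 to 3620 CPM. Below them Wnt4 did not follow these sums. Knock-in male normal replicate 2 and knock-in female normal replicate a had 7.98 and 7.53 CPM of Wnt4, with sums of 9.62 and 2.92. Wild-type male tumour replicate 1 and knock-in male tumour replicate 3 had 6.7 and 6.66 CPM, with sums of 462 and 416. In wild-type females, where these sums were 189 CPM or less, Wnt4 was at 2.31 to 3.76 CPM in normal colon and tumours alike. With the squamous sum as a covariate, Wnt4 was called lower in wild-type female tumours, with a log2 fold change of -1.21 and an edgeR adjusted p of 0.036.

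Wnt9a, a ligand of joint and limb development, was highest in the same 3 male libraries as the squamous markers, at 2.98, 3.18 and 2.96 CPM. Elsewhere it ran from 0.155 to 2.14 CPM, and with TMM scaling and all libraries it passed the edgeR threshold in no comparison. Its lowest group was wild-type female normal colon, 0.58 CPM ± 0.38 (SD, n = 3), with a log2 difference of -1.53 ± 0.54 from the males (edgeR adjusted p = 0.0586, 0.0441 when scaled by library totals and 0.0475 by DESeq2). Without wild-type male normal replicate 2 the edgeR adjusted p was 0.0394.

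**Figure D5:**
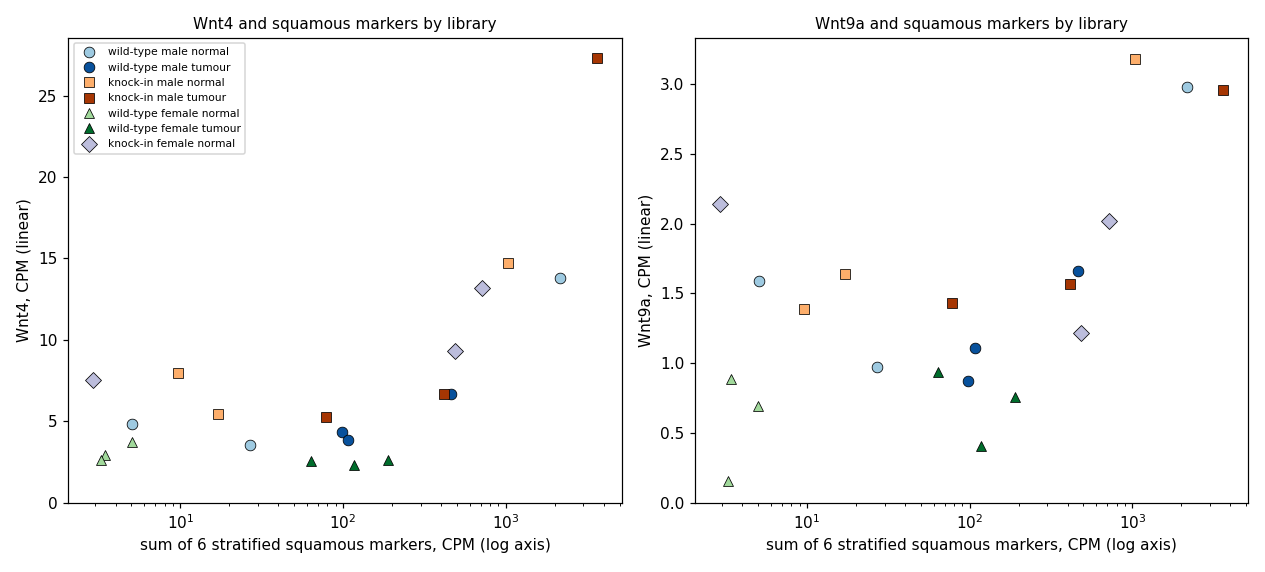
Wnt4 (left) and Wnt9a (right) in CPM on a linear axis against the summed CPM of 6 stratified squamous markers on a log axis, in the 21 libraries. The 5 libraries with the highest Wnt4 have squamous sums of 485 to 3620 CPM, and Wnt4 is at 27.3 CPM in the knock-in male tumour library with 3620. Knock-in male normal replicate 2 and knock-in female normal replicate a follow at 7.98 and 7.53 CPM of Wnt4, with sums of 9.62 and 2.92.

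Group means of the members had few clear steps. Wnt5a ran from 70.2 CPM ± 10.1 in wild-type female tumours and 67.9 ± 7.44 in knock-in male tumours, which overlapped, to 43.1 ± 6.81 in wild-type male tumours. The wild-type and knock-in male normal colons followed at 27.6 ± 7.1 and 26.4 ± 0.793, also overlapping, then knock-in female normal colon at 19 ± 1.89 and wild-type female normal colon at 12 ± 0.365. For Wnt6 the order began with wild-type male tumours at 89.4 ± 18 and wild-type female tumours at 54.8 ± 1.85, which did not overlap. From knock-in male tumours (30.3 ± 17.5) down to wild-type female normal colon (1.48 ± 0.46), each group overlapped the next.

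For Wnt2b the order ran from knock-in female normal colon at 26.6 CPM ± 1.78 to wild-type male tumours at 10.5 ± 2.67, the normal groups before the tumour groups, and each neighbour overlapped the next. Wnt11 was highest in knock-in female normal colon at 2.48 ± 1.24 and lowest in wild-type female normal colon at 0.314 ± 0.164, with the other 5 groups between. The latter group was clear of its neighbour, and the others were not. The mean of Wnt3 was highest in wild-type female tumours at 2.67 ± 0.634, above knock-in male tumours at 1.9 ± 0.226. These groups were barely apart, at 2.22 CPM (19 counts) against 2.15 (22 counts) where they came closest. Knock-in male normal replicate 1 was at 3.27 CPM, within the range of the female tumours. Wnt2, at 0.933 CPM or less in each group mean, had 0 to 23 counts per library, and each neighbour in its order overlapped.

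Among the 9 other Wnt ligand genes, 5 passed the low-count filter. Wnt5b, a close relative of Wnt5a, was at 0.56 CPM ± 0.41 in wild-type female normal colon and at means of 3.44 to 5.06 in the other 6 groups. It was 6.06-fold lower in female than in male wild-type normal colon (log2 fold change -2.60 ± 0.43, edgeR adjusted p = 0.000761). It was 6.59-fold higher in female tumours (2.72 ± 0.44, edgeR adjusted p = 5.81e-05) and 6.11-fold higher in knock-in female normal colon (2.61 ± 0.43, edgeR adjusted p = 0.000819). The interaction of genotype and sex was 2.31 ± 0.56 (edgeR adjusted p = 0.0352). Each of these shares the 3 wild-type female normal libraries, which held 13, 7 and 1 counts.

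Wild-type male tumours had more Wnt7a, at 4.03 CPM ± 1.5 against 0.562 ± 0.544 (log2 fold change 2.65 ± 0.84, edgeR adjusted p = 0.0204). In wild-type females Wnt7a, Wnt7b and Wnt16 had 1, 3 and 5 counts in all 3 normal libraries together and 43, 96 and 73 in the tumours, with edgeR adjusted p of 0.00244, 0.0175 and 0.00636. The Wnt16 counts were 1, 37 and 35 in tumour replicates 1, 2 and 3. Replicate 1, at 0.136 CPM, lay within the normal range of 0 to 0.279 CPM. Wnt8b was lower in wild-type tumours of both sexes, with log2 fold changes of -2.33 ± 0.86 in males (edgeR adjusted p = 0.0429) and -2.19 ± 0.87 in females (edgeR adjusted p = 0.0452). In knock-in males none of these 5 was called, and none had an unadjusted p under 0.05. Wnt1, Wnt3a, Wnt8a and Wnt10b did not pass the filter.

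The genes that release Wnt ligands had 1 call each over the 12 comparisons. Wls, the carrier of Wnt proteins, was at group means of 106 to 152 CPM and was called in knock-in male tumours, 1.41-fold higher (log2 fold change 0.50 ± 0.15, edgeR adjusted p = 0.0282). Porcn, which adds the lipid, was at 2.96 to 7.67 CPM and was called in knock-in against wild-type female normal colon, 2.58-fold higher (1.37 ± 0.42, edgeR adjusted p = 0.0313). Neither was called in wild-type tumours of either sex.

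Of the 16 receptor genes, 9 were called in wild-type male tumours (3 higher, 6 lower), 3 in knock-in male tumours (1 higher, 2 lower) and 13 in wild-type female tumours (9 higher, 4 lower). Of all tested genes, 35.7%, 20.4% and 49.1% were called in these comparisons, and 3 of 16 in the knock-in is near that share. Fzd5, a Frizzled receptor of the intestinal epithelium, fell in each, with log2 fold changes of -1.32 ± 0.18, -0.60 ± 0.18 and -1.49 ± 0.18. Ror1, a co-receptor for Wnt5a, fell too, by -1.61 ± 0.25, -1.10 ± 0.24 and -1.98 ± 0.25. Ptk7, a planar polarity co-receptor, rose in wild-type tumours, by 1.49 ± 0.26 in males and 2.83 ± 0.28 in females. The median over the list was 0.00, 0.03 and 0.64, beside 0.01 over all tested genes each time. In wild-type female against male normal colon 6 receptor genes were lower and 0 higher, where 10.2% of all tested genes were lower, with Ptk7 at -1.84 ± 0.27 and Fzd2 at -1.68 ± 0.34. In knock-in against wild-type female normal colon 4 were higher and 0 lower, where 8.97% of all tested genes were higher: Fzd7, Fzd2, Ptk7 and Ror2, the last the receptor through which Wnt5a chiefly acts, at 1.04 ± 0.26.

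Of the 15 beta-catenin targets, tumours of wild-type males had 11 called higher, those of knock-in males 3 and those of wild-type females 15, and none was called lower. Of all tested genes, 16.5%, 10.4% and 25.0% were called higher. Their medians were 1.26, 0.53 and 2.78, beside 0.01 over all tested genes. Axin2 had log2 fold changes of 1.90 ± 0.43, 0.53 ± 0.41 and 3.75 ± 0.47, with edgeR adjusted p of 0.00294, 0.374 and 9.07e-06. In wild-type female against male normal colon 14 of the 15 were lower, where 10.2% of all tested genes were, with Axin2 at -2.45 ± 0.44 (edgeR adjusted p = 0.00199). The 3 targets called in knock-in male tumours, where Wnt6 and Wnt10a were not, were Cd44, Ephb2 and Ccnd1.

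Of 12 core pathway genes, 7 were called in wild-type male tumours (5 higher), 5 in knock-in male tumours (3 higher) and 8 in wild-type female tumours (6 higher), where 35.7%, 20.4% and 49.1% of all tested genes were called. Their median log2 fold changes were 0.32, 0.09 and 0.29, beside 0.01 over all tested genes. Lef1, a transcription factor of the pathway and itself a target, had log2 fold changes of 2.31 ± 0.64, 0.38 ± 0.62 and 5.06 ± 0.81. Its edgeR adjusted p were 0.0117, 0.69 and 9.8e-05. Tcf7 was at 1.82 ± 0.36, 0.91 ± 0.36 (not called) and 3.63 ± 0.42. Other Tcf factors of the list went the other way. Tcf7l1 was called lower in each, at -1.85 ± 0.33, -1.33 ± 0.32 and -2.14 ± 0.33. Tcf7l2 was at -0.66 ± 0.17, -0.46 ± 0.17 (not called) and -1.28 ± 0.17. Of 9 planar polarity genes, 4 were called in wild-type male tumours (3 higher), 1, lower, in knock-in male tumours and 6, all higher, in wild-type female tumours. The medians of the polarity genes were 0.03, 0.28 and 0.84, and their counts in males are near or below the shares of all genes. Vangl2 led them at 2.11 ± 0.42 in wild-type males and 4.32 ± 0.51 in females. In wild-type female normal colon 5 polarity genes and 3 core genes were lower than in males, where 10.2% of all tested genes were. None of either list was higher.

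Markers of stromal fibroblasts moved with Wnt5a in part, although bulk tissue does not show which cells its RNA came from. The summed level of 6 markers of subepithelial fibroblasts rich in PDGFRA was 110 to 187 CPM in normal colon of wild-type males and 255 to 301 in their tumours, 115 to 198 and 236 to 267 in knock-in males, and 83.8 to 97.5 and 273 to 326 in wild-type females. At most 1 of the 6 was at 0 in a library. Of the 5 tested, 3, 1 and 5 were called higher in the tumours. Knock-in female normal colon had 95.3 to 102 CPM, with 1 called higher than in the wild-type. In male tumours of the knock-in, where Wnt5a was higher than in the wild-type, these markers had 0 called higher and 1 lower, and of 8 general fibroblast markers 2 were higher. The part of these markers in the Wnt5a values was not tested.

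The other marker lists are given by their sums. Across the 7 groups the 5 macrophage markers in the table ran from 148 to 299 CPM and the 3 T cell markers from 1.3 to 11. B cell markers were called lower in tumours of wild-type females (4 of 4, 0.951 to 3.28 CPM against 6.27 to 39.6) and of knock-in males (3 of 4, 3.37 to 26 CPM against 29 to 95). Enteric neuron and glia markers were at 3.78 to 12.7 CPM in tumours and 11.4 to 23.7 in normal colon. Mesothelial markers were at 28.5 to 44.8 CPM in wild-type male tumours and 1.49 to 7.27 in normal colon (1 of 4 called higher), and at 8.77 to 21.1 and 2.17 to 27.4 in wild-type females (3 of 4 called lower). These tumour sums rest on few markers. In replicates 1, 2 and 3, the wild-type male tumours had 3, 2 and 1 of the 4 at 0 counts, and the female ones 3, 2 and 2. Adgre1 and Trac were not in the count table. The part of these cell types in the ligand values was not tested.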

How the data were processed

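Per the labels' protocols, total RNA of mouse colon went through RNase H removal of ribosomal RNA and random-primed cDNA synthesis before Illumina sequencing. Trimmomatic, HISAT2, featureCounts, DESeq2 and the mm10 build are named in the submitters' processing notes. The annotation and strand setting are not given in the sources used here. The deposited table holds raw counts per gene, whole numbers, as the authors made them. The authors' own table of DESeq2 results was not used. For knock-in female normal colon, 2 column headers are identical, and these columns were used as unnumbered replicates a and b beside replicate 1. 0 columns were left out. Depth limits the low ligands: 3 counts are 0.127 to 0.873 CPM.

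Groups were compared with the quasi-likelihood F test of edgeR (edgeR 4.0.16, limma 3.58.1, R 4.3.3), two-sided, on the deposited counts of all 21 libraries, with TMM scaling, filterByExpr by group, robust fitting and 1 coefficient per group. For each of 9 pairwise comparisons and 3 interactions, p-values were adjusted by Benjamini-Hochberg over 15936 genes, with a threshold of 0.05. CPM used TMM-scaled totals, and log2 CPM a prior count of 2. Fold changes are log2 values computed here, with SE from the fold change and the F statistic. Comparisons of 1 group with several others share its libraries. Scripts were tested on simulated data. Figures were drawn with matplotlib 3.10.9 in Python 3.11.15.

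Groups and replicate numbers come from the sample labels. Deviations from group means of same-numbered libraries correlated at 0.17, 0.17 and 0.21 between wild-type male tumours and normal colon. The labels do not say whether same-numbered libraries share an animal, so whether these are paired is not known. In the other comparisons not every pair passed 0.1. Number 1 correlated at 0.46 between knock-in and wild-type male normal colon, which cannot share an animal, so such values do not show pairing. The group comparisons above used no pairing.

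The 10 members and all gene and marker lists were chosen with earlier results of these data known. Named were all members, other Wnt ligands that passed the threshold, Porcn and Wls, at most 4 called receptor genes per comparison by adjusted p, examples from the core, target and polarity lists, and for each tested member the 2 genes with the highest Pearson correlation of log2 CPM, without predicted, ribosomal or mitochondrial names. Axin2, Lef1, the Tcf factors and Vangl2 were picked from their lists after their values were seen.

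Tried as alternatives were scaling by DESeq2 size factors or by library totals, no low-count filter, the DESeq2 1.42.0 Wald test, only the compared groups in the fit, a replicate block on numbered libraries, a covariate for libraries numbered 152 to 154, and omission of each library. Offsets for GC content and length, alone and with the block, and a squamous marker covariate were chosen after the data were seen. GC content and length were known for 95.3% of tested genes.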

Additional observations from a re-analysis of the deposited data

Results flagged for a closer look

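The tumour effect on Wnt5a differed between wild-type females and males by a test of the difference itself. The interaction was 1.90 ± 0.24 on the log2 scale (edgeR adjusted p = 0.000682, n = 3 libraries in each of 4 groups). Wnt5a rose in both sexes, and the difference held under each of the 10 other settings, with adjusted p up to 0.0087, and without each of the 12 libraries.

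The difference between genotypes in normal colon was unequal between the sexes for Wnt11 in the main fit. The interaction was 2.92 ± 0.68 (edgeR adjusted p = 0.0285): knock-in females were above wild-type females, and the males of the genotypes overlapped. The wild-type female libraries had 8, 1 and 3 counts of Wnt11. The call was lost with the squamous covariate, with the compared groups alone, and without any one of 6 of the 12 libraries. Under the other settings the interaction ran from 2.37 to 3.01 and the adjusted p from 0.00705 to 0.362.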

How the results depend on the processing

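No member's fold change that passed the threshold changed direction under any alternative run. Of the fold changes under other settings, 1026 stayed on their side of the threshold, 19 lost a call and 19 gained one, and with 1 library left out these numbers were 780, 22 and 8. The number of members called moved by more than 1.5 times as follows. In knock-in against wild-type male tumours (1 called) it was 2 with the compared groups alone and 0 with GC and length offsets plus the block. In knock-in against wild-type female normal colon (2) it was 4 by DESeq2 and with the compared groups alone, and 1 with the squamous covariate. In wild-type female against male tumours (0) it was 1 under library totals, the squamous covariate and DESeq2, and 3 with the compared groups alone. DESeq2 gave 2 in place of 0 for the sexes in knock-in normal colon, 1 in place of 0 for the interaction of tumour and genotype, and 2 in place of 1 for that of tumour and sex. For the interaction of genotype and sex in normal colon (1) it was 0 with the squamous covariate and with the compared groups alone. The cause of these shifts was not tested.

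With the replicate block, on 19 numbered libraries and so with 1 knock-in female normal library, 0 members were called in knock-in against wild-type female normal colon and 0 in the interaction of genotype and sex, also with GC and length offsets added; fewer libraries enter there. In wild-type female tumours 5 were called, Wnt2b being lost. The block changed no other call, among them the 4 in wild-type males. It fitted a shared effect per replicate number over all groups, so it is no paired test of wild-type male tumours against normal colon.

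Without 1 library at a time, the counts ran from 3 to 4 for tumours of wild-type males, 1 to 2 for knock-in males and 5 to 6 for wild-type females. They ran from 0 to 1 for knock-in against wild-type male tumours, 1 to 2 for female normal colon and 2 to 4 for the sexes in wild-type normal colon, the 2 being without wild-type female replicate 1. For the sexes in knock-in normal colon they were 0 to 2, and for the interactions 0 to 2 (genotype), 1 to 2 (sex) and 0 to 2 (genotype and sex); the other comparisons stayed at 0.

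Scaling by library totals moved the median of all genes by 0.14 in wild-type female tumours, and the share of higher genes among the called from 51% to 62.1%. That share moved from 56.1% to 72.8% in knock-in against wild-type female normal colon, from 46.7% to 61.2% in female against male tumours, from 36.1% to 21.4% in normal colon and from 69.4% to 82.2% in the interaction of genotype and sex. For the sexes in knock-in normal colon it moved from 31.2% (93 genes called) to 55% under DESeq2 size factors or totals (20 called) and 51.7% under GC and length offsets (29). These offsets gave 1090 genes in place of 2315 for male tumours by genotype, 51 in place of 137 for tumours by sex and 0 in place of 240 for the interaction of tumour and genotype; library totals gave 311 in place of 179 for that of tumour and sex. Depth limits Wnt2, Wnt3, Wnt9a, Wnt9b and Wnt11, which had 63 counts or fewer in every library, and Wnt10a in wild-type female normal colon.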
